A study of Saccharomyces cerevisiae with 6 samples.

Results

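The genes of the small subunit of the cytosolic ribosome were followed in *Saccharomyces cerevisiae* BY4742 exposed to cadmium sulfide quantum dots (CdS QDs). They are the genes whose symbol is RPS with a number and, for copies of a pair, A or B, by the platform's table of probes and genes. Of 56 such genes in the R64 annotation, 52 were on the array, out of 5449 *S. cerevisiae* genes measured. The other 4 had no probe set listed for them. The 52 genes had 65 probe sets, and each gene is given by the brightest of its own.

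Cells of 3 groups were compared, each with 2 arrays. The first received nystatin at 0.27 mg/L together with CdS QDs at 100 mg/L, the second nystatin alone at 0.27 mg/L, and the third was the untreated control, moved to fresh medium with neither agent. All were BY4742, a haploid *MAT*α strain with the deletions *his3*Δ1, *leu2*Δ0, *lys2*Δ0 and *ura3*Δ0, grown in rich medium (YPD) at 30 °C for 24 h before treatment and for 24 h in it. The doses are those of the sample labels, and the paper's methods name a slightly lower one for nystatin. Nystatin, which binds ergosterol and opens pores in the membrane, was used below its inhibitory dose to help the QDs enter the cells, so there is no group with QDs and no nystatin. The methods describe the 2 arrays of a condition as aliquots of RNA extract, and the p-values may therefore measure technical spread only.

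The small subunit holds the messenger RNA and reads its codons, while the large subunit joins the amino acids. It is built from 1 ribosomal RNA and its RPS proteins, which are made in near equal amounts. In yeast most RPS proteins are encoded by A and B genes that remain from a duplication of the whole genome, and the proteins of such a pair are identical or nearly so. Transcription of these genes takes a large share of a growing cell's effort and is set by nutrients through the TORC1 and protein kinase A pathways, with the factors Rap1, Fhl1, Ifh1 and Sfp1 at the promoters.

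Values are log2 units of signal, so a difference of 1 is a factor of 2. Signals of different probe sets are not comparable as amounts of RNA, so each fold change compares a probe set with itself between groups. The words rose and fell are used where the adjusted p of limma's moderated test, over 5498 *S. cerevisiae* probe sets, was under 0.05. Every array correlated with its replicate at 0.998 to 0.999 over these probe sets, and the RPS values of replicates differed with an SD of 0.08 with nystatin + CdS QDs, 0.062 with nystatin and 0.057 in the untreated control. All 52 genes lay above background (1.42 to 1.48, the 95th percentile of *S. pombe* probe sets) on every array. Of the strain's deleted markers, *LEU2*, *LYS2* and *URA3* lay between 0.92 and 2.29, and *HIS3*, whose deletion is partial, between 7.84 and 8.63. Genes of the α mating type lay between 5.22 and 9.61 and those of the a mating type between 3.57 and 6.48. The signal at the 3′ end of 7 control transcripts exceeded that at the 5′ end by 1.58 on both nystatin + CdS QDs arrays, 1.45 on both nystatin arrays, and 1.47 and 1.41 on the untreated control arrays. It thus moved with the QDs, and its part in the results was not tested. Whole cultures were measured, so a change in every cell and a change in a share of the cells cannot be told apart.

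With nystatin + CdS QDs, RPS genes were higher than in the untreated control. Of the 52 genes, 51 rose, 0 fell and 1, *RPS12*, did not pass (51 genes at an unadjusted p under 0.05). Over all probe sets, 36.5% were called higher and 38.9% lower, so the RPS genes went in 1 direction where the array as a whole went in both. The median RPS gene was at 10.84 and 10.77 on the nystatin + CdS QDs arrays, 10.00 and 10.08 on the nystatin arrays, and 9.88 and 9.89 on the untreated control arrays. All arrays had nearly the same overall median (7.72 to 7.73), which is largely set by the normalization, since it gives all arrays 1 distribution of values. The median log2 fold change of the RPS genes against the untreated control was 0.73, a factor of 1.66, against −0.01 over all probe sets. The lower and upper quartiles of the RPS genes were 0.56 and 0.98, and 31 of the 52 between 0.5 and 1.

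**Figure D1:**
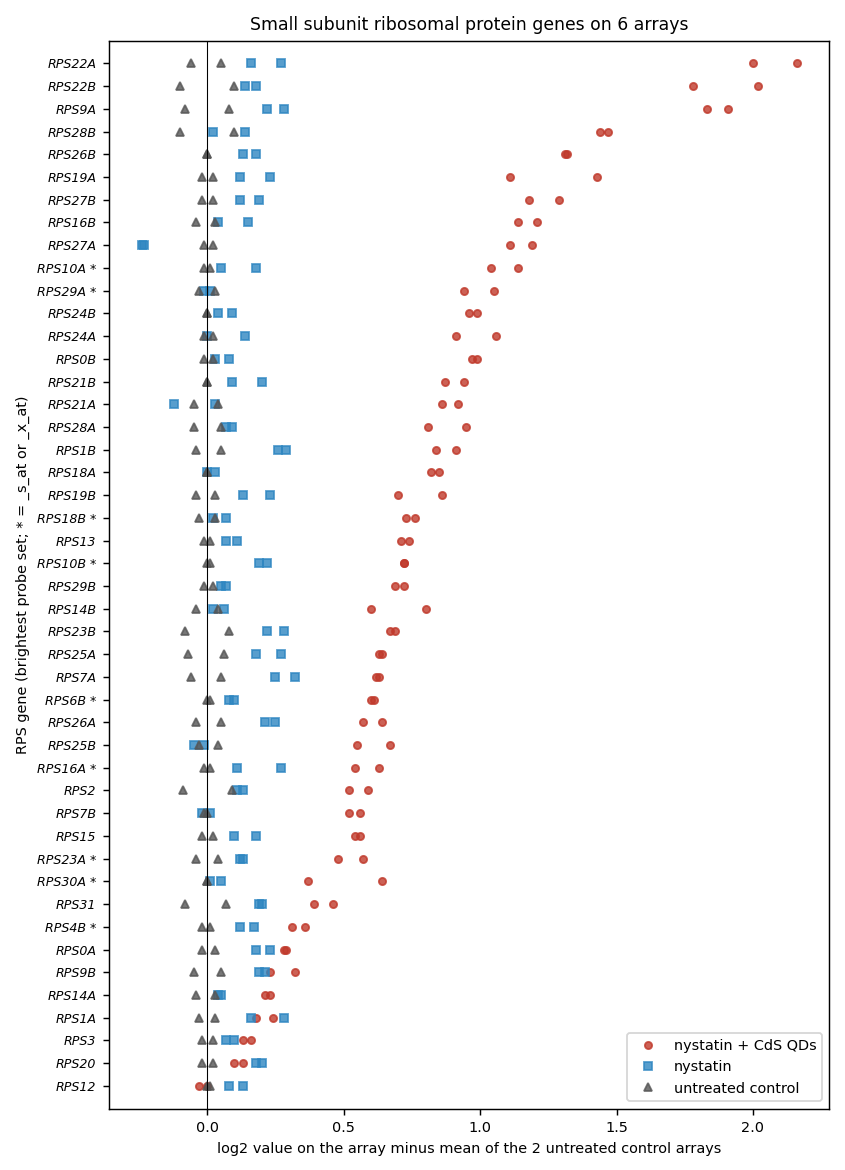
Each of the 46 rows is 1 RPS gene, and each point its log2 value on 1 array minus the mean of the 2 untreated control arrays, for nystatin + CdS QDs (circles), nystatin (squares) and the untreated control (triangles). Genes run from *RPS22A* at 2.08 to *RPS12* at −0.02, and the nystatin squares stay near the triangles for most genes.

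The study's own thresholds, a log2 fold change of at least 1 with p under 0.01, were passed by 12 RPS genes, against 4.95% of all probe sets. Both genes of *RPS22* led. *RPS22A*, which encodes a protein of the subunit's body that binds the ribosomal RNA early in assembly, read 9.92 and 9.76 with nystatin + CdS QDs, 7.92 and 8.03 with nystatin, and 7.70 and 7.81 in the untreated control. It rose by 2.08 (standard error 0.072, adjusted p = 7.48e-07). *RPS22B* read 10.06 and 9.82, against 8.18 and 8.22 with nystatin and 7.94 and 8.14 in the untreated control, and rose by 1.90 (standard error 0.095). In both genes the QD arrays stood far apart from the other 4, which lay close together.

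*RPS9A* encodes a protein at the entry of the mRNA channel that bears on the accuracy of decoding. It read 7.60 and 7.52 with nystatin + CdS QDs, 5.97 and 5.91 with nystatin, and 5.61 and 5.77 in the untreated control, and rose by 1.87 (standard error 0.065, adjusted p = 7.49e-07). *RPS28B*, whose mRNA is known in yeast to be destabilised by its own protein, read 9.44 and 9.41, against 7.99 and 8.11 with nystatin and 7.87 and 8.07 in the untreated control, a rise of 1.46 (standard error 0.075). For both genes no nystatin + CdS QDs array overlapped any other array.

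*RPS26B* encodes a protein at the exit of the mRNA channel, where it touches the bases before the start codon. It read 9.85 and 9.84 with nystatin + CdS QDs, 8.66 and 8.71 with nystatin, and 8.53 on both untreated control arrays, and rose by 1.31 (standard error 0.042, adjusted p = 6.06e-07). *RPS19A*, for a head protein whose human counterpart is mutated in Diamond-Blackfan anaemia, read 9.62 and 9.30, against 8.31 and 8.42 with nystatin and 8.17 and 8.21 in the untreated control. It rose by 1.28 (standard error 0.1), and its QD arrays differed by 0.32, the widest gap between replicates of any RPS gene.

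The *RPS27* genes encode a zinc-binding protein of the body. *RPS27B* read 11.07 and 10.96 with nystatin + CdS QDs, 9.90 and 9.97 with nystatin, and 9.76 and 9.80 in the untreated control, and rose by 1.23. *RPS27A* read 10.85 and 10.77, against 9.43 and 9.42 with nystatin and 9.68 and 9.65 in the untreated control, and rose by 1.15. Its nystatin arrays lay below the untreated control ones. *RPS10A*, for a head protein near the mRNA entry, read 10.23 and 10.13 with nystatin + CdS QDs, 9.14 and 9.27 with nystatin, and 9.10 and 9.08 in the untreated control, and rose by 1.09 on a probe set of the _x_at type, described further on. *RPS16B* rose by 1.18, and its values stand with those of its A copy below. In all 12 genes both nystatin + CdS QDs arrays lay above the other 4.

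At the other end stood *RPS12*, which encodes a protein of the beak of the head. It read 11.62 and 11.59 with nystatin + CdS QDs, 11.70 and 11.75 with nystatin, and 11.62 and 11.63 in the untreated control. Its difference from the untreated control was −0.02 (95% interval −0.13 to 0.08, adjusted p = 0.677), and to 2 decimals the groups touch at 11.62. Next came *RPS20*, a head protein marked with ubiquitin when ribosomes collide, with 11.50 and 11.47, against 11.57 and 11.55 with nystatin and 11.35 and 11.39 in the untreated control. It rose by 0.12 (adjusted p = 0.0439), and leaving out either untreated control array, either nystatin array or nystatin + CdS QDs replicate 1 took its adjusted p to between 0.0711 and 0.2. *RPS3*, a head protein at the mRNA entry, read 11.15 and 11.12, against 11.06 and 11.09 with nystatin and 10.97 and 11.01 in the untreated control. It rose by 0.14 (adjusted p = 0.0175, and 0.1 without untreated control replicate 1). *RPS1A* rose by 0.21 (adjusted p = 0.0131), which was 0.0845 without untreated control replicate 1 and 0.0554 without nystatin + CdS QDs replicate 1. The calls of the other 48 genes that rose held in each alternative setting in which their probe set was used.

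The 7 single-copy RPS genes on the array had a median log2 fold change of 0.43, beside 0.82 for the 45 genes of A and B pairs. *RPS13*, for a protein of the body, rose by 0.72, *RPS2*, for a protein of the mRNA entry, by 0.56, *RPS15*, for a head protein that reaches the decoding centre, by 0.55, and *RPS31*, made as a fusion with ubiquitin, by 0.43. With *RPS3*, *RPS20* and *RPS12* these make up the class, and none of the 7 passed the study's thresholds. Signal level ran alongside this. The 7 RPS genes with an untreated control value of 11 or more had a median of 0.34 (−0.02 to 0.60), and the 11 with a value under 9 a median of 1.31 (0.21 to 2.08). Brightness depends on the probes as well as on the RNA, and its part in the size of the folds was not tested.

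The medians were close between parts of the subunit and between older and younger proteins. The 21 genes of the 13 measured head proteins had a median of 0.74 (20 rose, 0 fell) and the 31 genes of the 18 proteins of the body and platform 0.72 (31 rose, 0 fell). The 23 genes whose 14 proteins have bacterial relatives had a median of 0.70 and the 29 genes of the other 17 proteins 0.78. These classes were drawn up from general knowledge after the values had been seen.

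Against nystatin alone, nystatin + CdS QDs gave much the same picture. Of the 52 genes 46 rose, 1 fell and 5 did not pass, while 36.7% of all probe sets were called higher and 38.3% lower. The median was 0.64, against −0.01 over all probe sets, and 11 genes passed the study's thresholds against 4.87% of probe sets. *RPS22A* was highest again (1.86, standard error 0.072), followed by *RPS22B* (1.74) and *RPS9A* (1.62). *RPS27A* had 1.38 here, against 1.15 over the untreated control. Both comparisons use the same nystatin + CdS QDs arrays. *RPS12* was the gene that fell, by 0.12 (adjusted p = 0.0403). That call was lost without either nystatin array (0.0588 and 0.19), without nystatin + CdS QDs replicate 2 (0.105), and without either untreated control array (0.0723 each). The calls of *RPS14A* and *RPS31* were lost with little change of the fold. *RPS14A* rose by 0.17, and without nystatin replicate 1 had 0.16 (adjusted p = 0.056). *RPS31* rose by 0.23, and without nystatin replicate 2 had 0.23 (adjusted p = 0.0543).

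The 5 genes that did not pass against nystatin were *RPS3* (0.06, 95% interval −0.04 to 0.16), *RPS20* (−0.07, −0.18 to 0.03), *RPS0A* (0.08, −0.02 to 0.19), *RPS1A* (−0.01, −0.15 to 0.12) and *RPS9B* (0.08, −0.05 to 0.21). The last 3 are copies of pairs whose other copy rose, with *RPS0B* at 0.93, *RPS1B* at 0.60 and *RPS9A* at 1.62.

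**Figure D2:**
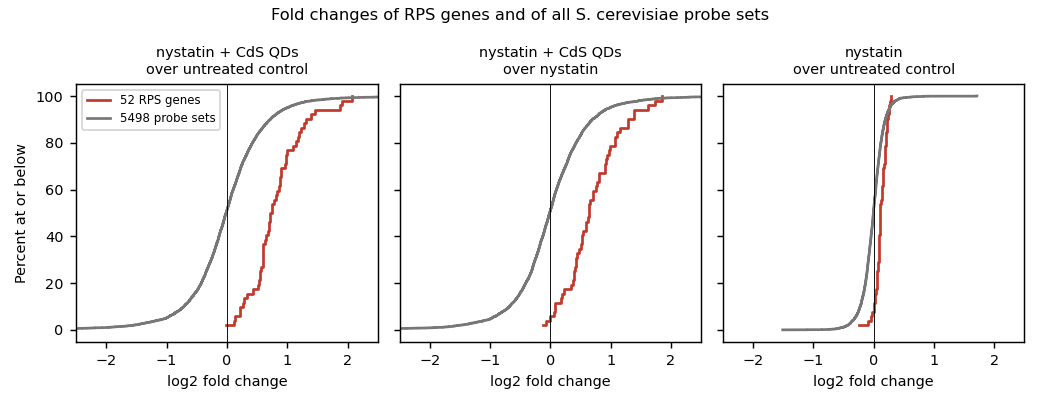
Each panel plots, for 1 comparison, the percent of RPS genes (red, 52) and of all *S. cerevisiae* probe sets (grey, 5498) at or below a log2 fold change given on the horizontal axis, which is drawn from −2.5 to 2.5. The red line lies to the right of the grey one by most in the comparisons with CdS QDs, where the RPS medians are 0.73 and 0.64, and by little with nystatin alone, where the median is 0.11.

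With nystatin alone the differences from the untreated control were small. Of the 52 genes 12 rose, 1 fell and 39 did not pass (22 at an unadjusted p under 0.05), while 10.4% of all probe sets were called higher and 11.4% lower. The median was 0.11, against −0.01 over all probe sets, and 47 of the 52 values were above 0, as were 48.5% of all probe sets. None of the 52 passed the study's thresholds. Of the 13 calls, 12 were lost whichever of the 4 arrays compared was left out. All 13 were lost without untreated control replicate 1 (adjusted p 0.105 to 0.247), without nystatin replicate 1 (0.0537 to 0.179) or without nystatin replicate 2 (0.0934 to 0.208), and 12 without untreated control replicate 2 (0.0503 to 0.164). Where a call was lost, the rises were 0.13 to 0.34 and the fall −0.23 to −0.25, beside 0.15 to 0.28 and −0.24 over all arrays. *RPS9A* moved most in ratio, with 0.17 without untreated control replicate 1 in place of 0.26.

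*RPS7A*, for a protein of the body needed for maturation of the subunit's RNA, read 9.61 and 9.68 with nystatin and 9.30 and 9.41 in the untreated control, and rose by 0.28 (adjusted p = 0.0139). *RPS1B*, for a protein of the platform near the mRNA exit, read 9.95 and 9.98 with nystatin, against 9.65 and 9.74 in the untreated control, and rose by 0.27 (adjusted p = 0.015). *RPS10B* read 8.76 and 8.79 with nystatin, against 8.57 and 8.58 in the untreated control, a rise of 0.20 (adjusted p = 0.0177). That probe set is of the _x_at type, and the gene's _at probe set rose by 0.33. In these 3 genes the groups did not overlap, and the rises were by factors of 1.22, 1.2 and 1.15. *RPS0A* (0.20), *RPS26A* (0.23), *RPS20* (0.19) and *RPS23B* (0.25) came next by adjusted p. *RPS23B*, for a protein of the decoding centre, read 10.38 and 10.44 with nystatin and 10.08 and 10.24 in the untreated control. *RPS9A* (0.26), *RPS1A* (0.22), *RPS25A* (0.22), *RPS26B* (0.15) and *RPS9B* (0.19) completed the 12. *RPS27A* fell, with 9.43 and 9.42 with nystatin against 9.68 and 9.65 in the untreated control (−0.24, standard error 0.045, adjusted p = 0.0143). *RPS27A* was thus lower with nystatin and higher with nystatin + CdS QDs than in the untreated control.

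The A and B copies were then set side by side. For 21 of the 24 annotated pairs both copies were on the array, and all 42 of those genes rose with nystatin + CdS QDs against the untreated control. The test asked whether the A minus B difference of an array's values changed between groups, and was adjusted over the 57 A and B gene pairs of the array (21 RPS pairs, 29 of the large subunit, 2 other named pairs and 5 with systematic names only). In 15 of the 21 RPS pairs the copies changed by different amounts, with the larger rise in the A copy in 7 and in the B copy in 8. That is 71.4%, against 77.2% of all 57 pairs, a share near that background. The median size of the A minus B difference in fold change was 0.37 for the RPS pairs and 0.45 for all pairs. In most pairs called, the larger rise was on the copy whose probe set had the lower untreated control value, though not in *RPS1* and *RPS10*. Signal level and fold change correlated at −0.75 (Pearson) over the 52 RPS genes, beside −0.18 over all 5498 probe sets. The part of brightness in the differences between copies was not tested.

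**Figure D3:**
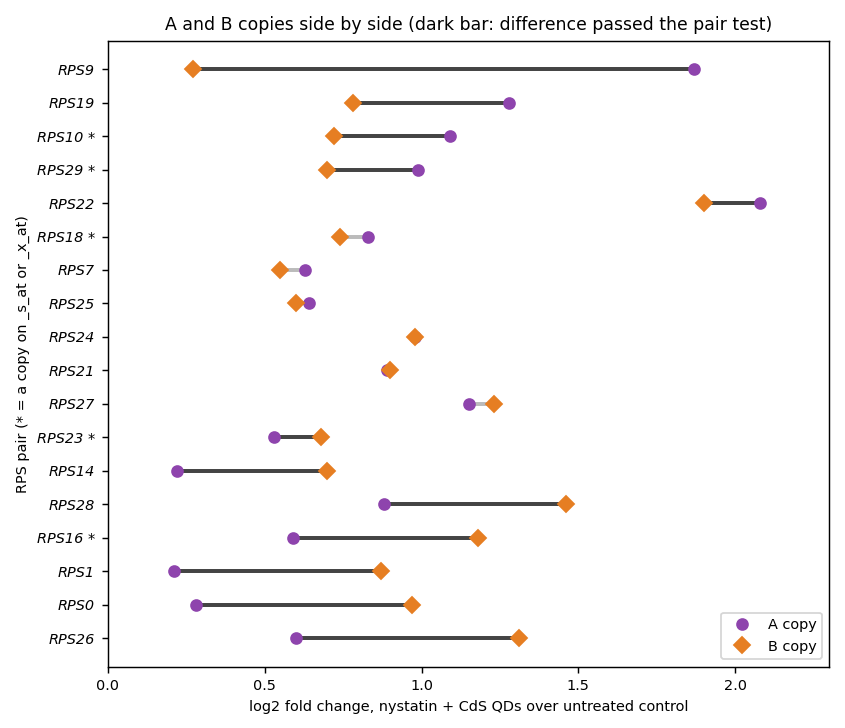
For each of 18 RPS pairs, the log2 fold change of nystatin + CdS QDs over the untreated control is plotted for the A copy (circle) and the B copy (diamond), with a dark bar where the A minus B difference passed the pair test and a pale bar where it did not. *RPS9* has the longest bar, from 0.27 for the B copy to 1.87 for the A copy, and the copies of *RPS24* and *RPS21* coincide.

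*RPS9* differed most. *RPS9B* read 10.11 and 10.02 with nystatin + CdS QDs, 9.98 and 10.00 with nystatin, and 9.74 and 9.84 in the untreated control, a rise of 0.27 beside the 1.87 of *RPS9A*. The A minus B difference in fold change was 1.60 (standard error 0.051, adjusted p = 2.37e-07). Both *RPS9* genes contain introns, and their splicing is known in yeast to respond to the amount of Rps9. Splicing was not measured here.

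*RPS26* followed, with a difference of −0.71 (standard error 0.058, adjusted p = 1.31e-05). *RPS26A* read 11.54 and 11.47 with nystatin + CdS QDs, 11.15 and 11.11 with nystatin, and 10.86 and 10.95 in the untreated control, and rose by 0.60, beside 1.31 for *RPS26B*. For *RPS0*, which encodes a protein on the solvent side, the difference was −0.69 (standard error 0.045). *RPS0A* read 9.62 and 9.63 with nystatin + CdS QDs, 9.52 and 9.57 with nystatin, and 9.32 and 9.37 in the untreated control. *RPS0B* read 9.64 and 9.62, against 8.68 and 8.73 with nystatin and 8.64 and 8.67 in the untreated control. The B copy moved with the QDs and hardly with nystatin alone (0.05, adjusted p = 0.44). The A copy rose by 0.28 with nystatin + CdS QDs and by 0.20 with nystatin alone. The latter had an adjusted p of 0.0226, and of 0.0693 without moderation.

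For *RPS1* the difference was −0.66 (standard error 0.05), and both copies had risen with nystatin alone (A by 0.22, B by 0.27). *RPS1A* read 9.16 and 9.10 with nystatin + CdS QDs, 9.08 and 9.20 with nystatin, and 8.89 and 8.95 in the untreated control, so that its QD and nystatin arrays overlap. *RPS1B* read 10.60 and 10.53 with nystatin + CdS QDs, above both its nystatin arrays, and rose by 0.87 against the untreated control.

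**Figure D4:**
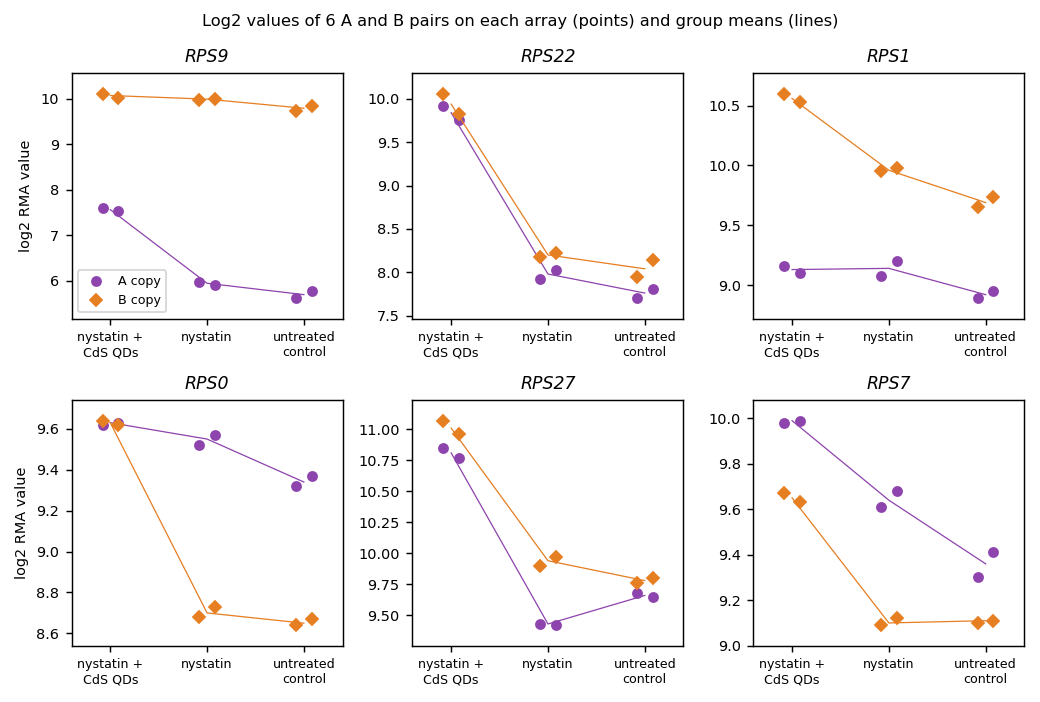
Log2 values on the 2 arrays of each group (points) and group means (lines) are plotted for the A copy (circles) and B copy (diamonds) of 6 pairs, each panel with its own vertical axis. In *RPS22* both copies climb together with CdS QDs, in *RPS9*, *RPS1* and *RPS0* 1 copy climbs much more than the other, and in *RPS27* the A copy dips with nystatin alone.

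*RPS16*, for a head protein whose tail reaches the transfer RNA in the peptidyl site, had a difference of −0.60 (standard error 0.047). *RPS16A* read 10.54 and 10.45 with nystatin + CdS QDs, 10.02 and 10.18 with nystatin, and 9.90 and 9.92 in the untreated control, and rose by 0.59. *RPS16B* read 10.39 and 10.32, against 9.22 and 9.33 with nystatin and 9.14 and 9.21 in the untreated control, and rose by 1.18. The probe set of *RPS16A* is an _x_at.

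*RPS28* had −0.58 (standard error 0.068). *RPS28A* rose by 0.88 (10.39 and 10.25 with nystatin + CdS QDs, 9.53 and 9.51 with nystatin, 9.39 and 9.49 in the untreated control) and *RPS28B* by 1.46, both with QD arrays above all others.

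The copies of *RPS19* (0.49, larger in A), *RPS14* (−0.48, larger in B), *RPS10* (0.37) and *RPS29* (0.30) also differed. *RPS14A* rose by 0.22 and *RPS14B* by 0.70. Rps14 is a platform protein known in yeast to repress the splicing of its own *RPS14B* transcript, and here too splicing was not measured. *RPS22* (0.18) and *RPS23* (−0.15) passed by less. The *RPS22* call was lost without untreated control replicate 2 (adjusted p = 0.145) or nystatin + CdS QDs replicate 2 (0.102), and the *RPS23* call without untreated control replicate 1 (0.166) or nystatin + CdS QDs replicate 1 (0.136). The 6 pairs that did not pass were *RPS24* (0.01, 95% interval −0.16 to 0.17), *RPS21* (−0.004, −0.13 to 0.12), *RPS25* (0.03, −0.11 to 0.17), *RPS7* (0.08, −0.05 to 0.21), *RPS27* (−0.09, −0.21 to 0.04) and *RPS18* (0.09, −0.02 to 0.20).

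Against nystatin alone 18 of the 21 pairs differed, beside 84.2% of all pairs. Those that did not were *RPS22* (0.12, 95% interval −0.02 to 0.25), *RPS23* (−0.03, −0.15 to 0.09) and *RPS24* (0.01, −0.15 to 0.17). With nystatin against the untreated control 2 of the 21 differed, beside 3.51% of all pairs, and these 2 were the only pairs called among the 57. In *RPS27* the A copy fell while *RPS27B* read 9.90 and 9.97 with nystatin against 9.76 and 9.80 in the untreated control (difference −0.40, standard error 0.053, adjusted p = 0.00618, and 0.0806 without untreated control replicate 1). In *RPS7* the A copy rose and *RPS7B* read 9.09 and 9.12 with nystatin against 9.10 and 9.11 in the untreated control (difference 0.29, standard error 0.055, adjusted p = 0.0309). The *RPS7* call was lost without either nystatin array (0.0515 and 0.121) or either untreated control array (0.216 and 0.0504).

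Near-identical copies can share signal on an array. Of the 65 probe sets 10 end in _s_at, whose probes match several transcripts, and 6 in _x_at, some of whose probes match other sequences. The brightest probe set was an _s_at for 8 genes, an _x_at for 4 and an _at for 40. *RPS4B*, *RPS6B* and *RPS30A* have only an _s_at probe set and their A or B partners have none of their own, so that their values (rises of 0.34, 0.60 and 0.51) may hold both copies. In 8 of the 21 pairs a copy stands on such a probe set.

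For 13 genes a probe set of the _at type could be set beside an _s_at or _x_at one. Both were called rising with nystatin + CdS QDs against the untreated control in all 13, and the fold was lower on the _s_at or _x_at probe set in 10. The gaps were widest for *RPS23A* (0.53 on the _s_at against 0.89 on the _at probe set), *RPS18B* (0.74 against 1.05) and *RPS29A* (0.99 on the _x_at against 1.28). Among those that went the other way were *RPS24A* (1.04 on the _s_at against 0.98) and *RPS29B* (0.74 on the _x_at against 0.70). With nystatin against the untreated control the calls were alike for 11 of the 13.

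**Figure D5:**
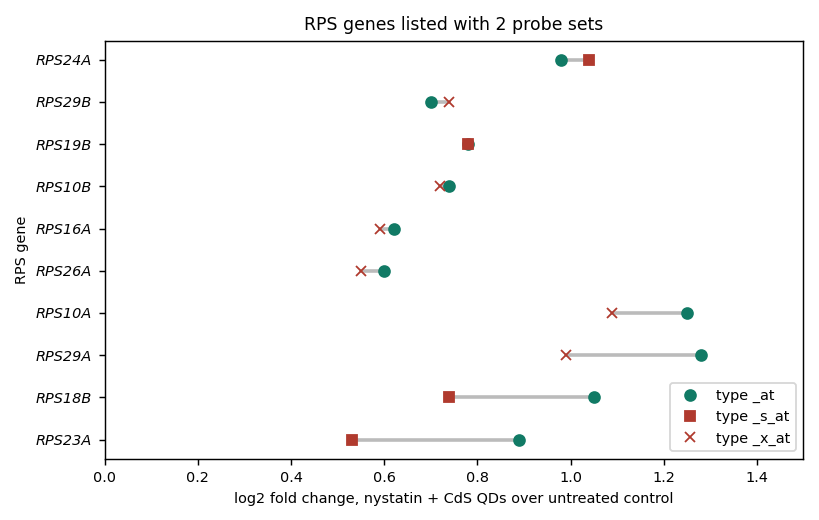
For 10 RPS genes with 2 probe sets, the log2 fold change of nystatin + CdS QDs over the untreated control is plotted for the _at probe set (circle) and the _s_at (square) or _x_at (cross) probe set. All lie above 0.5, and in 8 genes the _s_at or _x_at probe set is the lower.

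With _at probe sets only, 15 of 21 pairs again differed between nystatin + CdS QDs and the untreated control, with the larger rise in the A copy in 7 and in the B copy in 8, but not all were the same pairs. The *RPS23* difference was then 0.21 (adjusted p = 0.0412) in place of −0.15, and that of *RPS18* −0.22 (adjusted p = 0.00315) in place of 0.09. The difference of *RPS29* widened to 0.59, and that of *RPS16* was −0.57. For *RPS10*, whose copies both stand on _x_at probe sets above, it was 0.51 (standard error 0.1) in place of 0.37. With nystatin against the untreated control 4 pairs then passed, among them *RPS27*, *RPS7* and *RPS25* (0.25, adjusted p = 0.0384).

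Several RPS genes lie next to another ribosomal protein gene in the order of protein-coding genes of the R64 annotation. *RPS22A* stands between *RPS14B* and *RPL39*, and with nystatin + CdS QDs against the untreated control *RPS22A* rose by 2.08, *RPS14B* by 0.70 and *RPL39* by 0.96. *RPS16B* rose by 1.18 beside *RPL13A* at 0.97, and *RPS16A* by 0.59 beside *RPL13B* at 0.19. *RPS19B* rose by 0.78 beside *RPL18B* at 0.33, and *RPS9B* by 0.27 beside *RPL21A* at 0.73. These values were not set against other pairs of neighbours.

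The other genes of the ribosome and its assembly were read from lists chosen with earlier results of these data known, and the counts compare with the 36.5% higher and 38.9% lower of all probe sets. Of 75 genes of the large subunit 66 rose with nystatin + CdS QDs against the untreated control, 2 fell and 7 did not pass, with a median of 0.64. *RPL33B* (1.91), *RPL37A* (1.36) and *RPL22B* (1.82) rose with the smallest adjusted p. The 2 that fell were *RPP2B*, of the stalk that recruits translation factors (−0.46), and *RPL4A* (−0.33). Of 34 genes listed for the small subunit of the mitochondrial ribosome 31 rose, 2 fell and 1 did not pass, with a median of 0.61. *RSM18* rose by 1.05. The 2 that fell were *KGD4* (−0.49) and *EHD3* (−0.28), now known for enzymes of 2-oxoglutarate and valine metabolism. Genes that fell in these 2 lists are named after their values were seen, as are the chaperones below. *ASC1*, for a scaffold protein on the head of the small subunit, rose by 0.89, while *STM1*, for a protein that clamps idle ribosomes, fell by 0.47.

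Genes that build the subunit went in both directions. Of 30 genes of small subunit assembly 7 rose, 14 fell and 9 did not pass, with a median of −0.14. *NOP14*, which acts in the nucleolus, fell by 1.17, *RIO1*, a kinase of the last cytoplasmic steps, fell by 1.11, and *YAR1*, the chaperone of free Rps3, fell by 0.69, while *EMG1*, which methylates the subunit's RNA, rose by 0.81. The list holds *SYO1* and *BCP1*, chaperones of large subunit proteins. A list of 7 chaperones of ribosomal proteins had 2 that rose, 4 that fell and 1 that did not pass (median −0.34). Those that serve the small subunit were *TSR2* for Rps26 (a rise of 0.21), *FAP7* for Rps14 (0.23), *TSR4* for Rps2 (−0.38) and *YAR1*, all 4 also on the assembly list, and the other 3 serve the large subunit. Of 13 genes of initiation factors that bind the small subunit 7 rose, 3 fell and 3 did not pass (median 0.20), with *HCR1*, a partner of initiation factor eIF3, at 0.50 and *RPG1*, the largest subunit of that factor, at −0.36.

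Among 14 regulators of ribosomal protein genes the median was −0.54, with 4 that rose, 8 that fell and 2 that did not pass. *CRF1*, for a co-repressor that TORC1 keeps off these promoters, fell by 2.93 (standard error 0.08), *CBF1* fell by 1.25, *TOD6*, for a repressor of ribosome biogenesis genes, fell by 1.02, and *ABF1*, a general factor that serves some of these promoters in place of Rap1, fell by 0.71. The paper also lists *CRF1* as down-regulated and proposes that its fall promotes protein synthesis. It adds that the role of *CRF1* at these genes differs between strains. That role was not tested here. With nystatin alone the medians were 0.13 for the large subunit, 0.16 for the mitochondrial list, −0.08 for assembly and −0.08 for the regulators, and *CRF1* did not pass (0.001).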

How the data were processed

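RNA was measured on 6 GeneChip Yeast Genome arrays of 10928 probe sets. Whether the 2 arrays of a group came from separate cultures or extracts is not clear from the methods. The log2 values were used as deposited. By the paper's methods and the submitters' processing notes, the authors made them in Affymetrix Expression Console with RMA. This method removes background, gives all arrays 1 distribution of values by quantiles and condenses each probe set into 1 value, so a shift common to all genes is removed. Scanned intensities were not analysed here. Probe sets were named by the platform table, 12 symbols being updated through the R64 gene table. Precision is limited by the small number of arrays.

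A mean for each of 3 groups was fitted over 5498 probe sets in limma 3.58.1 under R 4.3.3 (residual degrees of freedom 3, prior 3.80), with Benjamini-Hochberg adjustment and two-sided tests. The pair test fitted A minus B per array over 57 pairs (prior 4.36). Both fits were run on simulated data with normal noise at the residual spread of these arrays. Of 67 probe sets changed by 0.5, 60 were called, and of 8 pairs changed by 0.5, 8 were called. Smaller changes were not simulated, nor was any spread that these replicates do not hold. The paper names no test for its p under 0.01, and limma's was used. *RPP1*, whose symbol matches the large subunit rule but which encodes a subunit of RNase P, was left out of that list.

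The members, lists and tests were chosen with earlier results of these data known. Values per array are printed for members past the study's thresholds, members that did not pass, the 8 pairs with the largest difference, and members called with nystatin, with up to 4 genes per list by adjusted p. The values of some members and pairs are not reported here, though all enter the counts and medians of members and pairs. Replicate numbers were not taken as pairs. Alternatives changed the moderation, arrays, probe sets, normalization, replicate block and threshold. Promoter, intron and protein sequences were not analysed here. Python 3.11.15 with pandas 2.3.3, numpy 2.4.6 and matplotlib 3.10.9 served for tables and plots.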

Additional observations from a re-analysis of the deposited data

How the results depend on the processing

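With nystatin + CdS QDs against the untreated control, 48 to 51 RPS genes rose and 0 fell under every alternative, 12 to 14 passed the study's thresholds and 12 to 15 pairs differed. The median lay between 0.71 and 0.77 when 1 array was left out, and was 0.83 with _s_at and _x_at probe sets left out. Against nystatin, 43 to 46 rose, 10 to 13 passed the thresholds and 14 to 18 pairs differed, the median lay between 0.59 and 0.67 when 1 array was left out, and the count that fell was 0 with the replicate block, with all probe sets of the array tested, with quantile normalization repeated, with only the 4 arrays compared and at an adjusted p under 0.01, and 0 to 1 with 1 array left out. With nystatin against the untreated control the count that rose was 1 without moderation, 20 with an intensity trend, 7 with the replicate block, 0 with all probe sets tested, 0 at an adjusted p under 0.01 and 0 to 16 with 1 array left out. The count that fell was 0 without moderation, with all probe sets tested and at an adjusted p under 0.01, and 0 to 1 with 1 array left out. The pairs called there were 0 without moderation, 4 with the trend, 1 with repeated quantile normalization, 4 with _s_at and _x_at probe sets left out, 1 at an adjusted p under 0.01 and 0 to 3 with 1 array left out. With those probe sets left out the A minus B difference changed sign in 4 cases. These were *RPS18* (−0.22) and *RPS23* (0.21) against the untreated control, and *RPS18* (−0.10) and *RPS23* (0.31) against nystatin. The cause was not tested, beyond the change of probe set itself. Testing all probe sets adds those of *S. pombe* and unnamed ones to the adjustment.

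Of 2337 values of single genes under alternatives, 2189 kept their direction and side of the threshold, 128 lost a call and 20 gained one. Same-numbered arrays did not deviate together (correlations of 0.008, 0.025 and −0.051 between groups), so the numbers were not read as pairs, and beyond the counts above the replicate block changed only the call of *RPS20* (adjusted p = 0.0587 against the untreated control). With 2 arrays a group, small changes such as those with nystatin alone are at the limit of what these arrays resolve. The highest RPS value was 12.02, where the highest value of an array was 13.23 to 13.26.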
